A study of Arabidopsis thaliana with 82 samples.

Results

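The 10 genes described here encode WRKY transcription factors of Arabidopsis thaliana that are known to be induced by wounding, pathogens or other stress. They were taken by gene identifier, as WRKY33 (AT2G38470), WRKY40 (AT1G80840), WRKY18 (AT4G31800), WRKY46 (AT2G46400), WRKY53 (AT4G23810), WRKY70 (AT3G56400), WRKY6 (AT1G62300), WRKY48 (AT5G49520), WRKY11 (AT4G31550) and WRKY22 (AT4G01250). They are 10 of the 27416 genes in the deposited table, and all 10 were among the 20766 genes that passed the filter on low values. Poly(A) RNA came from the hypocotyl, the stem between the root and the cotyledons, of Col-0 seedlings. The seedlings were 7 days old and were grown without sucrose at 20 °C under 8 h of light a day. Every plant had 1 cotyledon removed, the intact controls included. In grafted plants the hypocotyl was cut across and cut pieces of different plants were joined, and in separated plants the pieces were left apart. Tissue above the cut (tops) and below it (bottoms) was sampled 6, 12, 24, 48, 72, 120, 168 and 240 h after the operation. Intact hypocotyls were sampled at those 8 times and at 0 h, which gives 41 groups of 2 libraries each. Labels describe the 2 libraries of a group as independent biological replicates.

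WRKY factors carry a DNA-binding domain that recognises the W-box, a short promoter element with the core TTGAC, and they both activate and repress defence genes, other WRKY genes included. Many of them are switched on within minutes of wounding or of pathogen recognition, downstream of mitogen-activated protein kinase (MAPK) cascades and calcium signals. In leaves they are best known for balancing salicylic acid against jasmonate responses and for steering senescence.

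Levels are given as x, the deposited library-normalised value multiplied by the constant 0.0809 for every gene and library. With this constant the median library has the sum that CPM values have. Tests were made with limma on log2(x + 1), and a difference is called when its p-value, adjusted by the Benjamini-Hochberg method over all 20766 genes, is under 0.05. The spread in these tests comes from all 41 groups with 2 libraries in each, so a difference at 1 time rests on 2 libraries against 2. Depth could be estimated from the spacing of low values in 78 of the 82 libraries and was 7.56 to 20.2 megareads (median 12.6), so that 1 unit of x stood for 5.78 to 22.0 reads. Replicates correlated at r = 0.971 to 0.993 across genes, which are not independent replicates. Times were grouped as 6 to 24 h, 48 to 72 h and 120 to 240 h, and each time counted equally. Log2 differences understate the change of members with x near 1, such as WRKY46, WRKY48 and WRKY53 in intact tissue. In bulk RNA of this kind, fewer cells of a type and less RNA per cell cannot be told apart.

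The promoters of 4 members are printed because these 4 genes stood furthest above their separated counterparts in grafted bottoms at 48 to 72 h. Each sequence is the 250 bases just before the annotated gene start, 5′ to 3′ on the gene's own strand, read from the RefSeq TAIR10.1 genome. Capitals mark the W-box, searched as TTGACC or TTGACT on either strand (GGTCAA or AGTCAA when read on the other strand). WRKY33 lies on chromosome 2 on the plus strand, and its promoter window is chr2:16107985-16108234. The WRKY53 gene is on the minus strand of chromosome 4 with its window at chr4:12393983-12394232. WRKY40 is on the plus strand of chromosome 1 with its window at chr1:30383311-30383560. For WRKY46, on the minus strand of chromosome 2, the window is chr2:19044956-19045205.
WRKY33: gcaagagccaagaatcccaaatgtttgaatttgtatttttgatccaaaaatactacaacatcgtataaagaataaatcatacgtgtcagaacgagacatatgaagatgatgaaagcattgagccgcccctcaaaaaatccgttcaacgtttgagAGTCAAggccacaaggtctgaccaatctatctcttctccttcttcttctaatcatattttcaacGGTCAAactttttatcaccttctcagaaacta
WRKY53: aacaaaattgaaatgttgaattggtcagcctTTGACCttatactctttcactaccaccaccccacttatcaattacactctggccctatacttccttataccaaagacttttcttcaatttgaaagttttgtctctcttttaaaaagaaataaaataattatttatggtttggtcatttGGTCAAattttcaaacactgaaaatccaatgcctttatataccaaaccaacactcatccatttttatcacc
WRKY40: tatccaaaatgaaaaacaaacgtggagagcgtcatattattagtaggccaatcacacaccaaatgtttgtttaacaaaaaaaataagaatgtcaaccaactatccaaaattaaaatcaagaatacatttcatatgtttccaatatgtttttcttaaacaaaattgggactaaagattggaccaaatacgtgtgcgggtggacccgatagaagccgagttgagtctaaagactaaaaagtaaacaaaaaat
WRKY46: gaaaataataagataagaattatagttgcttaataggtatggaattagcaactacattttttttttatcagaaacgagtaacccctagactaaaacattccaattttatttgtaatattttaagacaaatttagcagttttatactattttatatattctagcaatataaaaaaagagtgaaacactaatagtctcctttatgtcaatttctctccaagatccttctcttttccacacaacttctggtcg

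WRKY33 held 2 W-boxes in this window, which began 96 and 32 bases before the gene start, and WRKY53 held 2, which began 219 and 71 bases before it. WRKY11 held 1, at 106 bases. The other 7 members, WRKY40 and WRKY46 among them, had no match to these letters in the window. The core TTGAC followed by another base was not counted, and the WRKY40 and WRKY46 windows hold it on the other strand (GTCAA). Over 27443 annotated genes, 28.4% of windows of the same length held a W-box and 6.18% held at least 2, so 3 of 10 members is close to the share of all genes.

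WRKY33, the group I factor that turns on camalexin synthesis and protects against necrotrophic fungi, reached its highest levels in grafted bottoms at the end of the series. Its levels there in replicates 1 and 2 were 69.8 and 124 at 6 h, 87.9 and 64.1 at 12 h, 133 and 78.7 at 24 h, 157 and 117 at 48 h, 163 and 225 at 72 h, 251 and 143 at 120 h, 530.4 and 281 at 168 h, and 817 and 363 at 240 h. The course was not a steady climb in both replicates, since replicate 2 was lower at 12 h than at 6 h and lower at 120 h than at 72 h. In separated bottoms it had 81.7 and 47.0 at 6 h, 7.61 and 9.55 at 48 h, 10.2 and 6.96 at 72 h, 93.2 and 88.7 at 168 h, and 139 and 121 at 240 h. Intact hypocotyls held 10.4 to 29.5 from 6 h on. From 48 h every grafted bottom lay above every separated bottom of the same time, and at 48 to 72 h the separated bottoms were also below all intact libraries. The difference between grafted and separated bottoms was 1.93 ± 0.32 (SE) at 6 to 24 h, 4.10 ± 0.39 at 48 to 72 h and 2.24 ± 0.32 at 120 to 240 h on the log2 scale (limma adjusted p = 2.87e-06, 7.6e-13 and 1.95e-08). Tops at 48 to 72 h held 27.8 to 49.8 when grafted and 32.4 to 83.4 when separated, with overlapping ranges. In tops no difference between grafted and separated was called in any window (log2 differences of 0.06, -0.34 and -0.43).

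WRKY40 and WRKY18 are group IIa factors that act together as repressors in basal defence and abscisic acid signalling, and they followed different courses. WRKY40 in grafted bottoms had 20.9 and 32.0 at 6 h, 149.6 and 74.9 at 48 h, 139 and 174 at 72 h, and 560.0 and 270.0 at 240 h. In separated bottoms the values were 30.0 and 21.8 at 6 h, 2.91 and 5.91 at 48 h, 4.94 and 3.32 at 72 h, and 49.4 and 34.0 at 240 h. Intact libraries held 15.9 and 15.8 at 6 h and 0.566 to 9.31 afterwards. At 6 h cut libraries of all 4 kinds held 20.9 to 42.7, not far above the intact ones. From 48 h the lowest grafted bottom lay above the highest separated bottom of any time. The log2 difference of grafted from separated bottoms was 4.66 ± 0.35 at 48 to 72 h (25.2-fold, limma adjusted p = 6.41e-16) and 3.20 ± 0.29 at 120 to 240 h (adjusted p = 5.99e-14). Tops at 48 to 72 h held 1.54 to 6.80 when grafted and 0.728 to 1.78 when separated, both within or near the intact range of 0.566 to 4.29.

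WRKY18 was high in every cut tissue and differed little with joining outside the middle window. Its levels were 40.6 to 271 over all 64 cut libraries, against 4.94 to 62.7 over the 18 intact ones. The only intact libraries above 22.8 were those of 6 and 12 h (62.7, 31.9, 34.6 and 48.2), so that the 2 ranges overlapped only there. Its highest group mean was in separated bottoms at 12 h, with 224 and 271 in the 2 libraries. Grafted and separated bottoms were called different in WRKY18 at 48 to 72 h alone, with 145 to 219 in grafted and 65.2 to 88.0 in separated bottoms (log2 difference 1.15 ± 0.23, limma adjusted p = 2.2e-05). At 6 to 24 h and at 120 to 240 h the differences were -0.18 ± 0.19 and 0.03 ± 0.19 and were not called.

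WRKY46, WRKY53 and WRKY70 belong to group III and are known for acting together in basal resistance to bacteria, with WRKY53 also a regulator of leaf senescence and WRKY70 a link between salicylic acid and jasmonate. WRKY46 had 41.3 and 24.8 in grafted bottoms at 48 h, 57.9 and 58.5 at 72 h, and 249 and 125 at 240 h. Separated bottoms had 7.44 and 2.99 at 48 h, 2.35 and 2.99 at 72 h, and 21.1 and 26.6 at 240 h, while no intact library exceeded 5.26. The 2 kinds of bottom did not overlap at any single time from 48 h on, and WRKY46 also climbed in tops, to 140.0 and 57.5 in grafted and 75.5 and 60.1 in separated tops at 240 h. Grafted bottoms exceeded separated bottoms by 3.26 ± 0.32 at 48 to 72 h and 2.62 ± 0.26 at 120 to 240 h (log2, limma adjusted p = 2.02e-12 and 1.51e-12).

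WRKY53 stood at 11.7 to 28.0 in grafted bottoms over 6 to 24 h and 16.8 to 45.8 over 120 to 240 h, against 2.02 to 7.85 and 3.97 to 8.25 in separated bottoms. These ranges did not overlap in any of the 3 windows, and WRKY53 was the only member of which this held at 6 to 24 h. Its log2 differences were 1.74 ± 0.23, 3.10 ± 0.28 and 2.30 ± 0.23 in the 3 windows (limma adjusted p = 2.39e-08, 1.49e-13 and 1.18e-12). Tops showed a short peak instead. At 6 h they held 30.4 and 22.3 in grafted and 34.7 and 43.1 in separated plants, and by 12 h 7.93 and 5.66 in grafted and 5.58 and 4.77 in separated ones.

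WRKY70 stayed low throughout. No library exceeded 30.3, and 1 separated bottom of 12 h was listed at 0. Grafted bottoms held 3.80 to 11.3 at 6 to 24 h and 5.58 to 21.4 at 120 to 240 h, and separated bottoms 0 to 4.13 and 1.62 to 11.2, so the ranges overlapped. Grafted bottoms were higher in all 3 windows, by 1.29 ± 0.30, 1.19 ± 0.37 and 1.15 ± 0.30 on the log2 scale (limma adjusted p = 0.000574, 0.00431 and 0.000669). After quantile normalisation the middle value was 0.60 and its adjusted p 0.156. Separated bottoms were not called against intact tissue in any window (log2 differences of -0.49, -0.72 and 0.58).

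WRKY6 is a group IIb factor of senescence and of phosphate signalling. WRKY48 is a stress-induced group IIc factor known to dampen resistance to bacteria. Every one of the 64 cut libraries lay above every intact library for both genes. The share of all genes for which this held was not computed. WRKY6 was at 34.9 to 286 (median 81.7) in cut libraries and at 3.80 to 9.39 (median 6.39) in intact ones. WRKY48 was at 29.1 to 354 (median 78.2) in cut libraries and at 0.243 to 4.45 (median 1.01) in intact ones. Both were already high at 6 h, WRKY6 most of all in bottoms, with 168 and 267 in grafted and 286 and 210.5 in separated ones. Afterwards they parted. WRKY6 declined to 70.2 and 44.7 in grafted bottoms at 240 h and was lower there than in separated bottoms, which had 109 and 85.1. Over 120 to 240 h that difference was -0.69 ± 0.15 (log2, limma adjusted p = 5.74e-05). WRKY48 in grafted bottoms climbed to 354 and 204 at 240 h, while separated bottoms had 77.0 and 46.6, and the windows' differences were -0.18 ± 0.16 (not called), 0.79 ± 0.20 and 1.57 ± 0.16.

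WRKY11, a calmodulin-binding group IId factor that restrains basal resistance, and WRKY22, a group IIe factor that acts below the flagellin-activated MAPK cascade, took different courses. WRKY11 was at 32.0 to 148 in cut libraries and 12.1 to 48.8 in intact ones. At 6 h it was highest in tops, with 107 and 106 in grafted and 132 and 127 in separated tops, against 89.0 and 63.2 in grafted and 53.2 and 40.8 in separated bottoms. Grafted bottoms exceeded separated ones in all 3 windows, by 0.52 ± 0.15, 1.06 ± 0.18 and 0.34 ± 0.15 (log2). The first and the last of these calls are not firm. At 6 to 24 h the limma adjusted p was 0.103 with only the groups compared and 0.0586 without replicate 2 of the separated bottoms at 24 h, and at 120 to 240 h it reached 0.127 when 1 library was left out. WRKY22 differed mainly by position. It was at 26.6 to 82.1 in grafted bottoms and 26.7 to 62.9 in separated bottoms over all times, while from 12 h on tops held 6.64 to 20.8 when grafted and 2.35 to 16.8 when separated. Grafted and separated bottoms were not called different for WRKY22 in any window (log2 differences 0.28 ± 0.19, -0.12 ± 0.23 and -0.07 ± 0.19).

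**Figure D1:**
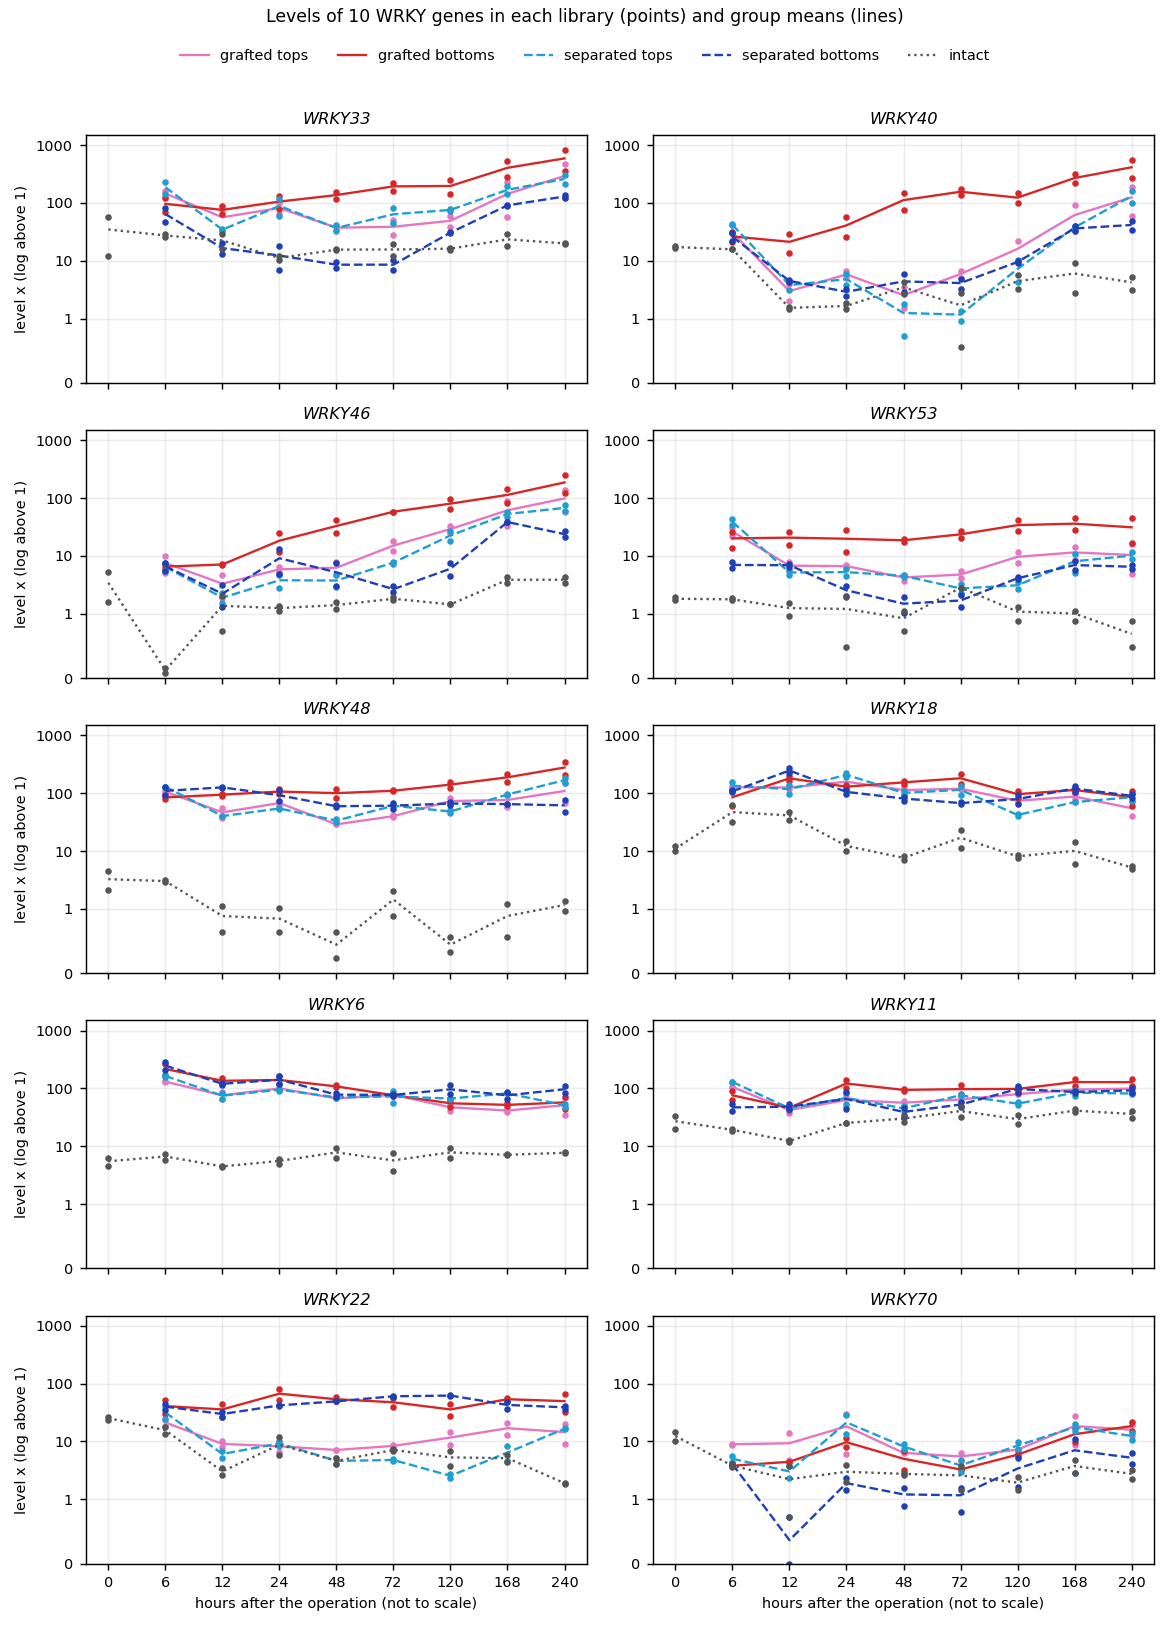
Levels x of the 10 WRKY genes (vertical axis, linear from 0 to 1 and logarithmic above 1) against hours after the operation (horizontal axis, evenly spaced), with 1 point per library and lines through the means of 2 libraries. At 48 and 72 h the grafted bottoms of WRKY33, WRKY40, WRKY46 and WRKY53 lie above all libraries of the other 4 conditions, while WRKY6 and WRKY48 are above intact in all 64 cut libraries.

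Counted over the members, 8 or more of the 10 were called higher than intact in each cut tissue in the first window. At 6 to 24 h, 10 of 10 were higher than intact and none lower in grafted tops (31.7% of all genes were higher and 30.8% lower) and in grafted bottoms (20.4% and 28.4%). Likewise 10 were higher in separated tops (32% and 30.8%) and 8 in separated bottoms (24.3% and 30.4%). WRKY33 (0.25 ± 0.32) and WRKY70 (-0.49 ± 0.30) were the 2 that were not called in separated bottoms. The median log2 difference of the members was 1.95 in grafted tops, 2.48 in grafted bottoms, 2.0 in separated tops and 1.60 in separated bottoms, against medians of -0.05 to 0 over all genes. No member was called lower than intact in any of the 12 comparisons of a cut tissue with intact tissue over a window.

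By the members' median difference from intact, the middle window was the lowest outside grafted bottoms. Single members could differ, as the mean level of WRKY46 in grafted tops was 5.58, 10.7 and 63.2 in the 3 windows. At 48 to 72 h, 8 members were higher than intact in grafted tops (31.5% of all genes were higher and 26.8% lower) and 9 in grafted bottoms (20.3% and 26.5%). In separated plants 8 were higher in tops (40.2% and 27.1%) and 5 in bottoms (27.8% and 28.5%). Under other settings the counts were 6 to 9 in grafted tops, 6 to 8 in separated tops and 4 to 7 in separated bottoms. In grafted bottoms the count stayed at 9. WRKY53 and WRKY70 lost their calls in both kinds of top after quantile normalisation. The summed level of 7 root markers was 123 to 194 in grafted tops and 86.1 to 168 in separated tops then, against 3.97 to 36.0 in intact hypocotyls, and its part in these differences was not tested. Of the 7, 1 was at 0 in all these grafted tops, 1 in all separated tops and 6 in all intact libraries. The members' medians were 1.11 in grafted tops, 3.46 in grafted bottoms, 1.09 in separated tops and 0.73 in separated bottoms. At 120 to 240 h the counts were 10 in grafted tops (30.6% and 24.7%), 10 in grafted bottoms (25.4% and 28.2%), 10 in separated tops (44.7% and 26.7%) and 9 in separated bottoms (32.4% and 31.2%). The medians were then 2.48, 3.80, 2.74 and 2.24 in that order of tissues. In grafted bottoms at 120 to 240 h the differences from intact were 6.75 ± 0.16 for WRKY48 (107-fold, limma adjusted p = 2.16e-34), 5.40 ± 0.29 for WRKY40 and 4.91 ± 0.26 for WRKY46. The other 7 members were at 1.71 to 4.11 there.

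The first and the last time point rest on 2 libraries a group. At 6 h, 7 members were higher than intact in grafted tops (25.5% of all genes were higher and 22.3% lower), 8 in grafted bottoms (14.8% and 16.1%), 9 in separated tops (25.3% and 23.6%) and 7 in separated bottoms (18.6% and 19.9%). For grafted bottoms the count fell to 5 without replicate 2 of that group and to 4 when only the groups compared were fitted. WRKY46 in intact tissue was at 0.0809 and 0.162 at that time, its lowest level anywhere, against 6.23 and 6.88 in grafted bottoms. At 240 h all 10 were higher in grafted tops (15.9% of all genes were higher and 16% lower) and in grafted bottoms (15.8% and 14.6%). The count in grafted tops was 6 when only the groups compared were fitted.

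Joined and separated pieces differed more often below the cut than above it, among the members as among all genes. Of all genes, 34.6%, 60.5% and 70.2% were called in bottoms in the 3 windows, and 0.347%, 22.6% and 49.3% in tops. In bottoms, 6 members were higher in grafted than in separated plants at 6 to 24 h and none was lower (17.5% of all genes were higher and 17.1% lower). At 48 to 72 h, 8 were higher and none was lower (30% and 30.5% of all genes). At 120 to 240 h, 7 were higher and WRKY6 was lower (35.6% and 34.6%). The 8 of 10 called in that window are close to the 70.2% of all genes. The count of 6 at 6 to 24 h ran from 4 to 6 under other settings and when 1 library was left out. Its call of WRKY46 is not firm, with a limma adjusted p of 0.079 after quantile normalisation and 0.0925 with only the groups compared. The members' median log2 differences were 0.65, 1.17 and 1.36, while those of all genes were within 0.01 of 0. At 48 to 72 h 8 members did not overlap between the 4 grafted and the 4 separated bottoms, the exceptions being WRKY6 and WRKY22. The share of all genes without overlap was not computed, and 60.5% of all genes were called in this comparison.

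In tops, no member was called between grafted and separated plants at 6 to 24 h (0.0337% of all genes were higher and 0.313% lower), and none had an unadjusted limma p under 0.05. The differences ran from -0.17 for WRKY11 to 0.49 for WRKY70. At 48 to 72 h WRKY40 (1.15 ± 0.35) and WRKY22 (0.62 ± 0.23) were called higher and none was lower (8.29% and 14.3% of all genes). These 2 calls are not firm, since the count was 0 or 1 after leaving out any 1 library. At 120 to 240 h WRKY22 (0.93 ± 0.19) and WRKY53 (0.57 ± 0.23) were higher and WRKY6 (-0.52 ± 0.15) was lower in grafted tops (19.5% and 29.8%). The value of WRKY53 was 0.31 (limma adjusted p = 0.263) without replicate 1 of the grafted tops at 240 h, and with only the groups compared its adjusted p was 0.132.

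Markers of other cell types moved with these comparisons of joined and separated pieces. At 48 to 72 h the summed level of 7 root markers was 43.2 to 243 in grafted bottoms, against 0 to 0.324 in separated bottoms and 3.97 to 36.0 in intact hypocotyls. In that window 5 of the 7 were at 0 in all grafted bottoms and 6 in all separated bottoms. In grafted bottoms at 120 to 240 h the sum was 4.94 to 181, against 0 to 1.29 in separated bottoms and 121 to 215 in intact hypocotyls. Intact libraries had 6 of the 7 at 0 throughout in each of these windows. In grafted tops at 120 to 240 h the sum was 13 to 54.5 and in separated tops 3.97 to 182. CASP1, an endodermis gene, made up most of it, with 2 of the 7 markers at 0 in all grafted bottoms of that window and 4 in all separated ones. The sum of 4 guard cell markers was 45.6 to 59.9 in grafted bottoms, 80.0 to 106 in separated bottoms and 98.9 to 129 in intact ones, with none of the 4 at 0 throughout. Of 5 shoot meristem markers, whose sum was 168 to 235 in grafted and 208 to 254 in separated bottoms, KNAT1 made up most, and WUS reached at most 0.162 and CUC2 0.243 in any library. At 6 to 24 h the root sum was 0 to 3.32 in grafted bottoms and 0 to 0.243 in the other 4 conditions. The part of these cell types in the differences of the WRKY genes was not tested.

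**Figure D2:**
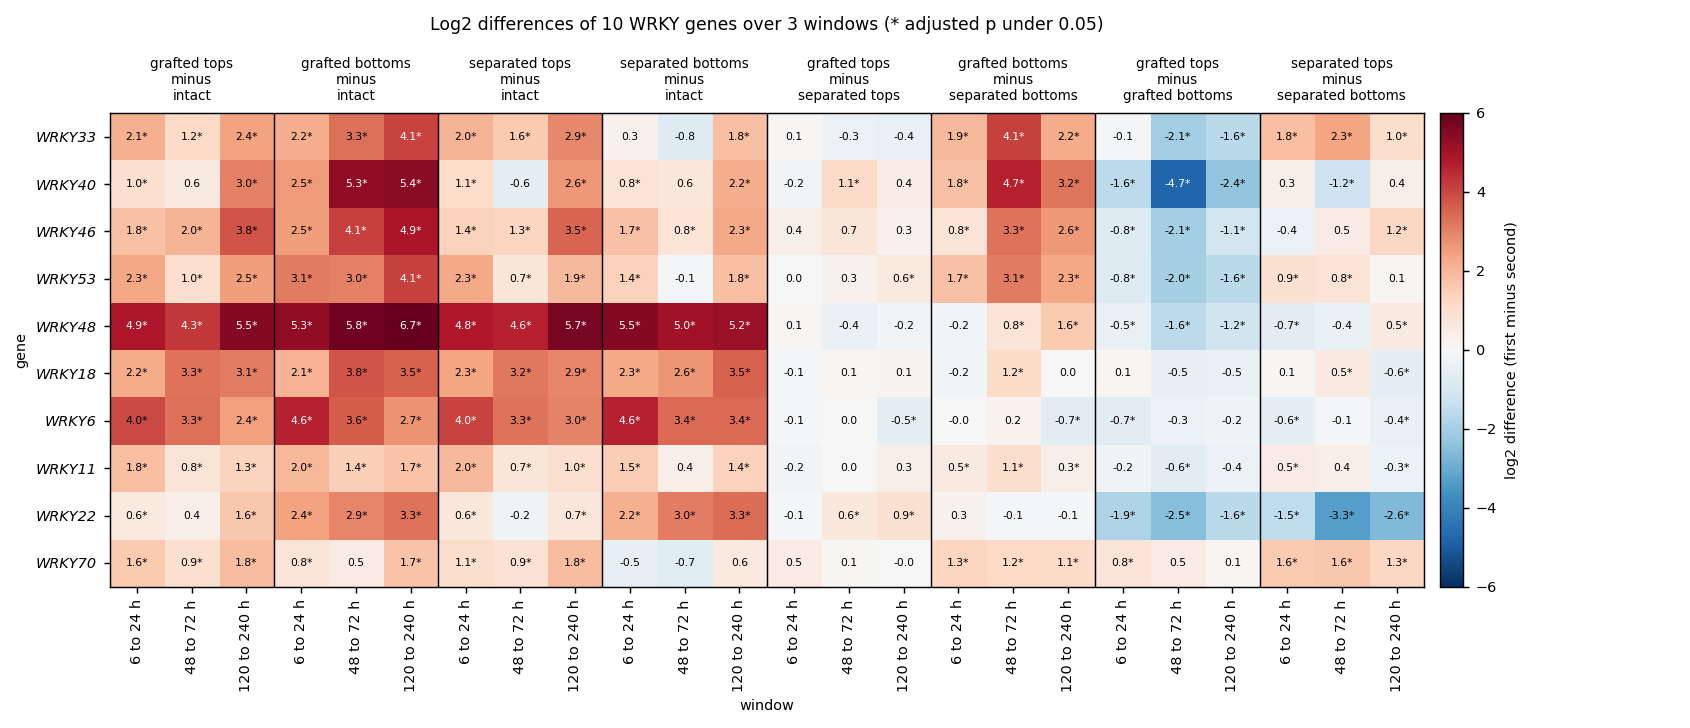
Log2 differences (number, and colour up to 6 in size) of the 10 WRKY genes, in rows, for 8 comparisons in 3 windows, in columns, with an asterisk where the limma adjusted p is under 0.05. All called differences of cut from intact tissue are positive, and the block of grafted minus separated bottoms is positive for WRKY33, WRKY40, WRKY46 and WRKY53 in every window.

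Most members stood lower in tops than in bottoms of grafted plants, which was not so in separated plants. In grafted plants, tops minus bottoms gave 1 member higher (WRKY70) and 6 lower at 6 to 24 h (37.8% and 27% of all genes). The call of WRKY70 (0.77 ± 0.30) is not firm: it was 0.41 (adjusted p = 0.229 in limma) without replicate 2 of the grafted tops at 24 h, and its adjusted p was 0.0904 with the replicate block on only the groups compared. There were 7 lower and none higher at 48 to 72 h (19.5% and 27.6%), and 6 lower and none higher at 120 to 240 h (11.2% and 12.4%). With the replicate number as a block in the limma fit, WRKY18 was also lower in grafted tops at 48 to 72 h (-0.51 ± 0.21, adjusted p = 0.0387) and at 120 to 240 h (-0.45 ± 0.17, 0.0405), and so was WRKY11 at 120 to 240 h (-0.36 ± 0.12, 0.0275). The widest gap was in WRKY40 at 48 to 72 h, where grafted tops held 1.54 to 6.80 and grafted bottoms 74.9 to 174 (log2 difference -4.74 ± 0.35, limma adjusted p = 2.33e-15). In separated plants, tops minus bottoms gave 4 higher and 3 lower at 6 to 24 h (40.4% and 31.6% of all genes), 4 and 2 at 48 to 72 h (47.2% and 29.4%), and 4 and 4 at 120 to 240 h (49.4% and 30.2%). These counts are close to the shares of all genes, with 8 of 10 called against 79.6% at 120 to 240 h. WRKY33 and WRKY70 were higher in separated tops than in separated bottoms in all 3 windows, and WRKY22 was lower in all 3. For WRKY70 at 48 to 72 h this was 1.61 ± 0.37, and 0.77 after quantile normalisation (limma adjusted p = 0.0551). Other calls in separated plants are not firm either. At 48 to 72 h WRKY53 was at -0.0707 after quantile normalisation (limma adjusted p = 0.839). WRKY18 had an adjusted p of 0.0976 with median-of-ratios scaling and WRKY40 0.0579 with a pseudocount of 5. At 120 to 240 h WRKY18, WRKY6 and WRKY11 lost their calls after quantile normalisation (0.15, 0.406 and 0.832). WRKY22 was also lower in tops than in bottoms of grafted plants, with -1.85 ± 0.19, -2.55 ± 0.23 and -1.63 ± 0.19.

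The difference between those 2 differences was tested as an interaction, that is, (grafted tops minus bottoms) minus (separated tops minus bottoms). A negative value means that bottoms stood higher relative to tops in grafted plants than in separated ones. At 6 to 24 h, 4 members were lower and none higher (11.6% and 10.4% of all genes): WRKY40 (-1.92 ± 0.40), WRKY33 (-1.87 ± 0.45), WRKY53 (-1.71 ± 0.32) and WRKY11 (-0.68 ± 0.21). The call of WRKY11 is not firm, with a limma adjusted p of 0.0652 with only the groups compared. At 48 to 72 h, 7 were lower and none higher (32.3% and 23.1%), led by WRKY33 at -4.43 ± 0.55 and WRKY40 at -3.51 ± 0.49. At 120 to 240 h, 6 were lower (41.6%) and WRKY22 was higher (28%), at 1.01 ± 0.27. The 7 of 10 called in this window are close to the 69.6% of all genes. WRKY6 was not called in any window (-0.06 ± 0.21, -0.19 ± 0.26 and 0.18 ± 0.21).

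**Figure D3:**
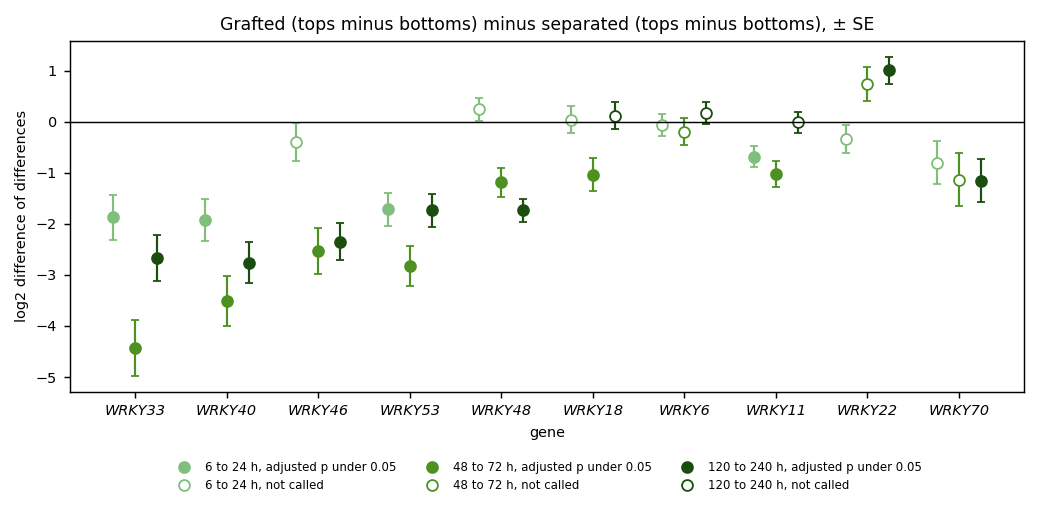
The log2 difference of differences, (grafted tops minus bottoms) minus (separated tops minus bottoms), for each WRKY gene (horizontal axis) in 3 windows, with bars of 1 SE and filled points where the limma adjusted p is under 0.05. WRKY33, WRKY40 and WRKY53 are below 0 and called in all 3 windows, and WRKY6 lies near 0 throughout.

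Late grafted libraries of replicate 1 stood above those of replicate 2. At 240 h all 10 members were higher in replicate 1, in grafted tops with a median ratio of 2.24 and in grafted bottoms with a median ratio of 1.90. At 168 h 9 members were higher in replicate 1 of the tops and 8 of the bottoms. At 120 h 9 were higher in each grafted tissue, with median ratios of 1.33 in tops and 1.41 in bottoms. Shared shifts were not confined to late grafted libraries. All 10 were higher in replicate 1 of separated bottoms at 6 h (median ratio 1.32), and 0 in intact tissue at 12 h (0.67). The share over all genes was not computed. In separated tops and bottoms of 240 h, 7 members each were higher in replicate 1, with median ratios of 1.25 and 1.16. WRKY33 in grafted tops had 231 and 57.1 at 168 h and 464 and 123 at 240 h in replicates 1 and 2. Leaving out the 4 grafted libraries of replicate 1 at 168 and 240 h, a choice made after seeing these values, left 10 members higher than intact in grafted tops and 10 in grafted bottoms. Grafted bottoms then had 6 members above and 1 below separated bottoms. In tops this choice changed the balance, with 1 member higher and 3 lower in grafted than in separated plants. Within replicate 1 alone, grafted minus separated tops gave 1.23 for WRKY40 and 0.20 for WRKY33, and within replicate 2 alone -0.36 and -1.05. For the same 2 genes in bottoms the values were 3.45 and 2.69 within replicate 1 and 2.95 and 1.8 within replicate 2.

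**Figure D4:**
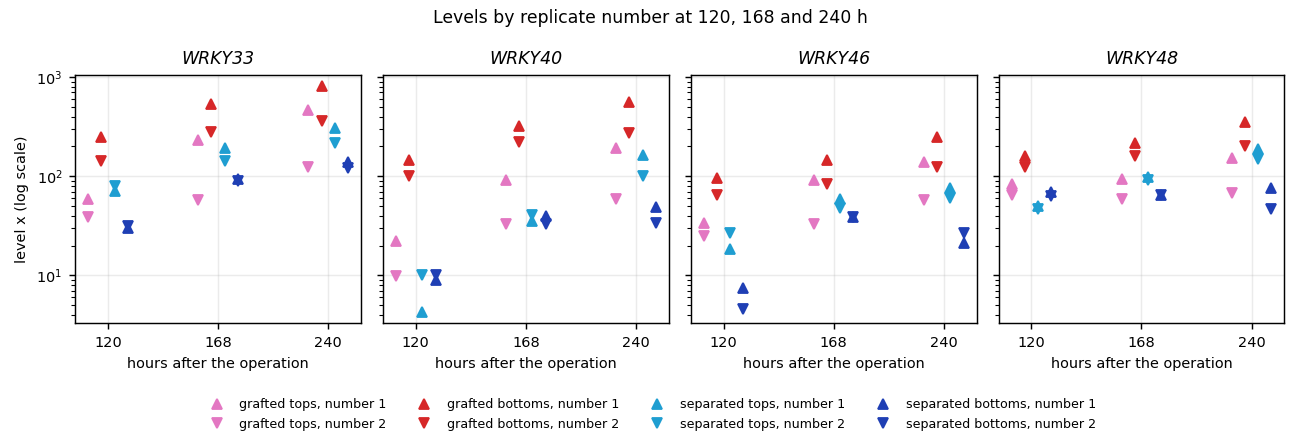
Levels x (logarithmic axis) of WRKY33, WRKY40, WRKY46 and WRKY48 at 120, 168 and 240 h, with 1 symbol per library, pointing up for replicate 1 and down for replicate 2. Replicate 1 is higher in both grafted tissues at 240 h for all 4 genes, and both grafted bottoms of each time are above both separated bottoms.

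Levels of different members were compared on the deposited values that were also scaled by length. In grafted bottoms at 120 to 240 h the order of these length-scaled means was WRKY40 (242 ± 147, SD, n = 6), WRKY33 (184 ± 112), WRKY48 (135 ± 54.5), WRKY46 (123 ± 64.4), WRKY11 (105 ± 20.5), WRKY18 (86.3 ± 19.6), WRKY22 (44.7 ± 14.7), WRKY53 (28.0 ± 9.68), WRKY6 (24.7 ± 4.51) and WRKY70 (11.8 ± 5.99). Neighbours from WRKY40 down to WRKY18 differed by less than their spread. In separated bottoms of the same window WRKY18 (84.0 ± 20.3) and WRKY11 (81.8 ± 10.1) led, WRKY40 was at 26.2 ± 14.6 and WRKY33 at 38.7 ± 20.8. In intact hypocotyls WRKY11 (32.1 ± 6.61) led and WRKY48 was the lowest, at 0.556 ± 0.279.

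Intact hypocotyls, which had lost a cotyledon, were not flat either. From 0 h to 6 h WRKY18 was higher, at 62.7 and 31.9 at 6 h against 9.95 and 12.2 at 0 h (log2 difference 1.93 ± 0.32), and WRKY46 (-1.85 ± 0.45) and WRKY70 (-1.46 ± 0.52) were lower (13.3% of all genes were higher and 13.3% lower). At 24 h against 0 h, WRKY40 (-2.79 ± 0.49), WRKY70 (-1.77 ± 0.52), WRKY22 (-1.5 ± 0.33) and WRKY48 (-1.16 ± 0.28) were lower and none was higher (12.1% of all genes were higher and 10.5% lower). The 0 h libraries of WRKY33 were far apart, at 12.0 and 57.7. These counts rest on single groups, and 0 members were called at either time with only the groups compared. In that fit the limma adjusted p of WRKY70 was 0.0822 at 6 h and 0.147 at 24 h. Without replicate 2 at 0 h, WRKY46 was at -1.22 and WRKY70 at -1.24 at 6 h. At 24 h WRKY70 was then at -1.55 and WRKY48 at -0.76.

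Across the 41 group means of log2(x + 1), the members' courses were alike to different degrees, given here as a description. Pearson's r was 0.90 between WRKY6 and WRKY48, 0.86 between WRKY18 and WRKY48, and 0.85 between WRKY33 and WRKY40, and the lowest of the 45 values was -0.04, between WRKY22 and WRKY70. All points share the same libraries, scaling and depth. The gene nearest to each member, member or not, was never another of the 10. For WRKY33 it was MKS1 (r = 0.93), which encodes a VQ-motif protein known to bind WRKY33 and the kinase MPK4. For WRKY40 it was SZF1 (r = 0.94), a salt-inducible zinc finger gene, and for WRKY46 it was FBS1 (r = 0.97), an F-box gene induced by stress. WRKY6 was nearest to AT5G64120 (r = 0.97) and WRKY48 to AT5G52050 (r = 0.97). WRKY18 was nearest to EARLI1 (r = 0.92), WRKY22 to AT5G19230 (r = 0.91), WRKY53 to AT4G20830 and WRKY11 to LECRKA4.1 (r = 0.90 each), and WRKY70 less closely to AT5G21105 (r = 0.77). Among the 15430 genes whose mean x over all libraries reached 5, those closest to the mean profile of the 10 members were AT2G22880 and AT3G57450 (r = 0.95 and 0.94), CMPG1, PUB23 and AR781 (0.94 each), RPS2 and GATL10 (0.93 each), and AT2G27080, AT4G39670 and MYB15 (0.92 each). CMPG1 and PUB23 encode U-box ubiquitin ligases of immunity, RPS2 encodes an immune receptor, and MYB15 is a stress-induced transcription factor.

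Genes that act beside these WRKY factors were followed as lists, which were chosen with earlier results of these data known. Of 11 rapid wound and touch response genes, 11 were higher in grafted bottoms than in intact tissue in each window, with median log2 differences of 2.53, 3.75 and 3.10. ZAT10, which encodes a zinc finger repressor of stress responses, had 3.24 ± 0.19 at 6 to 24 h. Between grafted and separated bottoms 8, 10 and 9 of the 11 were higher and 0, 0 and 1 lower in the 3 windows, with ERF5, an ethylene response factor gene, at 4.05 ± 0.27 at 48 to 72 h. Shares of all genes for these comparisons are those given above for the WRKY genes.

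Of 13 MAPK cascade and VQ partner genes, 2 were higher and 5 lower in grafted bottoms than in intact tissue at 6 to 24 h. Against separated bottoms 9 were higher and 1 lower at 48 to 72 h, and 10 and 1 at 120 to 240 h. MKS1 gave 2.27 ± 0.18 and 1.90 ± 0.14 in those windows, and SIB1, the gene of another VQ-motif protein that binds WRKY33, gave 2.46 ± 0.20 in the last. Of 13 pattern-triggered immunity genes tested, 10 were higher and 1 lower in grafted than in separated bottoms at 48 to 72 h, with PEPR1, a receptor gene for danger peptides, at 1.70 ± 0.15. All 4 camalexin synthesis genes that could be tested were higher in grafted bottoms at 120 to 240 h, led by CYP79B2 (3.81 ± 0.24). PAD3, a known target of WRKY33, was at 1.66 ± 0.27.

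Of 9 jasmonate genes tested, 0 were higher and 5 lower in grafted than in separated bottoms at 6 to 24 h, and 7 were higher and 1 lower at 120 to 240 h. AOS, the gene of allene oxide synthase, was at 3.49 ± 0.22 in the last window. The 12 salicylic acid genes tested gave 7 higher and 3 lower there, with EDS5, the gene of a salicylic acid precursor transporter, at 3.18 ± 0.23. In tops, 0 genes of these 6 lists were higher in grafted than in separated plants at 6 to 24 h, and 1, a pattern-triggered immunity gene, was lower. Of the 57 other WRKY genes in the annotation, 47 were tested. In grafted bottoms 25, 23 and 34 of them were higher than intact and 3, 2 and 1 lower in the 3 windows, with WRKY28 (4.70 ± 0.17), WRKY23 (4.21 ± 0.16) and WRKY8 (3.67 ± 0.16) at the head at 6 to 24 h. Against separated bottoms 21 were higher and 16 lower at 120 to 240 h (35.6% and 34.6% of all genes), with a median of 0.11. Such a division was not particular to the family. WRKY60, the third group IIa gene beside WRKY18 and WRKY40, was at 4.08 ± 0.26 at 48 to 72 h.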

How the data were processed

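Poly(A) RNA of 82 libraries in 41 groups was prepared with the TruSeq Stranded mRNA kit, per the labels' protocols. Cutadapt 1.8.1, Bowtie2 and the TAIR10 build are listed in the submitters' processing notes. Which tool counted reads, on which annotation, and whether by strand is not given in the sources used. The authors deposited 1 table of scores, values normalised per library and rounded to whole numbers, and a second also divided by length. Both cover 27416 genes, of which 26719 matched the reference annotation. Whole reads could not be recovered from them, so no count test was run.

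Here each deposited value was multiplied by 0.0809 to give x, and log2(x + 1) was fitted with limma 3.58.1 in R 4.3.3. The model had 41 group means, 41 residual degrees of freedom and eBayes with a trend. The test covered 20766 genes that reached an x of 1 in 2 or more libraries, in 35 contrasts, with Benjamini-Hochberg adjustment within each and a call under 0.05. Adjusted p-values come from this fit, and its p-values measure the spread between 2 libraries a group. Levels, correlations and promoters were computed with Python 3.11.15, NumPy 2.4.6 and pandas 2.3.3, and figures with Matplotlib 3.10.9. On simulated data for grafted bottoms minus intact at 6 to 24 h (20766 genes), the fit recovered 54 of the 67 genes given a 1.5-fold change, 64 of 67 given a 2-fold one and 66 of 66 given a 4-fold one. It also called 8 unchanged genes. The simulation gave every group the gene's overall mean with independent noise and changed few genes. It therefore lacked the many differences between groups and the shared deviations of libraries in the real data.

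The members and the gene lists were chosen with earlier results of these data known. All members are named. Of other genes, those closest in profile and up to 3 genes a list and contrast with the smallest adjusted p could be named. Same-numbered grafted tops and bottoms deviated together at 8 of 8 times (r = 0.148 to 0.506 across genes), so the numbers pair these libraries, by their values and not by a label. In no other pair of conditions did r exceed 0.1 at more than 6 of 8 times. Alternatives were other pseudocounts, filters, scalings, the length-scaled table, fits of only the groups compared, eBayes without a trend, the replicate block and leaving out each library.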

Additional observations from a re-analysis of the deposited data

Results flagged for a closer look

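The 18 results here are those where the difference between tops and bottoms itself differed between grafted and separated plants in an interaction test. Values are log2, (grafted tops minus bottoms) minus (separated tops minus bottoms), with limma adjusted p-values. The percentages of all genes called are those in the report, 11.6% lower at 6 to 24 h, 32.3% at 48 to 72 h and 41.6% at 120 to 240 h. In the same windows 10.4%, 23.1% and 28% were higher. At 120 to 240 h the 7 of 10 members called are close to the 69.6% of all genes.

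WRKY33 gave -1.87 at 6 to 24 h (adjusted p = 0.00152), -4.43 at 48 to 72 h (2.11e-09) and -2.67 at 120 to 240 h (8.95e-07). WRKY40 gave -1.92 (0.000333), -3.51 (4.99e-08) and -2.76 (5.45e-08) in the same windows. WRKY53 gave -1.71 (6.15e-05), -2.83 (3.29e-08) and -1.73 (5.56e-06). These 3 genes were called in every window.

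WRKY46 gave -2.52 at 48 to 72 h (5.25e-06) and -2.35 at 120 to 240 h (2.31e-07), and WRKY48 gave -1.19 (0.00033) and -1.73 (4.62e-09). WRKY11 was called at 6 to 24 h with -0.68 (0.0125) and at 48 to 72 h with -1.02 (0.000591). Its call at 6 to 24 h is not firm, with a limma adjusted p of 0.0652 with only the groups compared. The value was -0.52 without replicate 2 of the separated bottoms at 24 h. WRKY18 was called at 48 to 72 h with -1.03 (0.00571) and WRKY70 at 120 to 240 h with -1.15 (0.0142). The WRKY70 call is not firm, at -0.64 (adjusted p = 0.178) after quantile normalisation, and with adjusted p = 0.0577 without grafted tops of 168 h replicate 2 and 0.0609 without separated bottoms of 168 h replicate 1. WRKY22 stood alone in the other direction, with 1.01 at 120 to 240 h (0.000901).

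The root marker sum at 48 to 72 h had medians of 142 in grafted tops and 159 in grafted bottoms, against 151 in separated tops and 0 in separated bottoms. Of its 7 markers, 5 were at 0 in all grafted bottoms of that window and 6 in all separated bottoms. In tops 1 was at 0 in all grafted and 1 in all separated ones. The sum also moved in opposite ways at 120 to 240 h, with medians of 20.3 in grafted tops and 70.4 in grafted bottoms, against 72.7 in separated tops and 0.243 in separated bottoms. Its part in these values was not tested.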

How the results depend on the processing

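Counts of members called moved by more than 1.5 times in 6 of the 35 comparisons. For grafted minus separated tops at 48 to 72 h, 2 members were called, against 0 with a pseudocount of 5, 1 with no filter, 1 in the length-scaled table and 0 to 1 when any 1 library was left out. At 120 to 240 h the same comparison called 3, and 2 to 5 when 1 library was left out, with 5 without grafted tops of 240 h replicate 2. Grafted bottoms minus intact at 6 h called 8, against 4 when only the groups compared were fitted and 5 to 8 when 1 library was left out. Grafted tops minus intact at 240 h called 10, and 6 when only the groups compared were fitted. Intact 6 h minus 0 h called 3, against 1 with the replicate block, 0 with only the groups compared and 1 to 4 without 1 library. Intact 24 h minus 0 h called 4, against 2 with the replicate block, 0 with only the groups compared and 2 to 6 without 1 library. Under the block the intact 0 h level rests on replicate 1 alone, since no other group was sampled at 0 h, and a fit of 2 groups of 2 has fewer libraries to estimate the spread.

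Of 251 called member values, tried under 2594 other settings in all, 2530 kept direction and call, 63 lost the call and 1 turned round. That was WRKY53 in separated tops minus separated bottoms at 48 to 72 h, at -0.0707 after quantile normalisation (adjusted p = 0.839). The cause was not tested. When 1 library was left out, 2410 of 2496 kept the call, 86 lost it and none turned round. For grafted tops minus grafted bottoms, where the numbers pair the libraries, the replicate block called 7, 8 and 8 members in the 3 windows, against 7, 7 and 6 without it, and the added calls stand in the report.

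Median-of-ratios scaling moved the median of all genes by at most 0.09 (log2). Quantile normalisation moved it by over 0.1 in 8 of 35 comparisons (-0.23 to 0.21), and it moved the share of higher among called genes by over 10 percentage points in 5, for example to 37.2% against 47.4% for grafted bottoms minus intact at 120 to 240 h. Median-of-ratios scaling did so in 2, with 57.6% in that comparison and 55.9% against 36.8% for grafted minus separated tops at 48 to 72 h. With Spearman's rho, 6 of the 10 genes closest to the members' mean profile were shared with Pearson's r. Without the 4 late grafted libraries of replicate 1, WRKY53 in grafted minus separated tops at 120 to 240 h was at 0.20 (adjusted p = 0.483) and WRKY11 in grafted minus separated bottoms at 0.33 (0.0842). Depth limits the members near x = 1, since 1 unit of x stood for 5.78 to 22.0 reads.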
